A study of Homo sapiens with 12 samples.

Results

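Aminoacyl-tRNA synthetases join each amino acid to its tRNA. The 35 synthetase genes described here were chosen by name and not by their values. They comprise 19 genes whose enzymes act in the cytosol or in both compartments and 16 genes of mitochondrial enzymes, whose names end in 2. All 35 were found in both expression tables, which hold 61806 rows for LP-1 and 19130 rows for U266. RNA had been sequenced in 12 libraries of these human multiple myeloma lines, both established from malignant plasma cells and labelled as wild type. The groups were LP-1 cells given dihydroartemisinin (DHA) at its IC50, LP-1 cells given an equal amount of DMSO as solvent control, and the corresponding DHA and DMSO groups of U266, each of 3 libraries after 12 h in serum-containing medium. The question was how the drug, an artemisinin derivative, alters transcription in myeloma cells. No concentration is stated, and each line is a single cell line.

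The cytosolic enzymes supply every ribosome outside mitochondria, and several of them sit in a large multisynthetase complex. The mitochondrial enzymes, also encoded in the nucleus, charge the mitochondrially encoded tRNAs for the few respiratory chain subunits made there. GARS1 and KARS1 make both forms from the same gene, and QARS1 has no mitochondrial counterpart, since mitochondria make glutaminyl-tRNA by transamidation. Uncharged tRNAs activate the kinase GCN2. This raises the transcription factor ATF4, whose known targets include many cytosolic synthetase genes and few mitochondrial ones.

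Values are FPKM, fragments per kilobase of transcript scaled to the reads mapped in the library, and the 2 lines have separate tables. The spacing of low FPKM values gave depths of 13.4 to 17.5 M reads for the LP-1 libraries and 10.2 to 21.65 M reads for the U266 libraries. In LP-1, 37.0% to 38.5% of low values fell on even steps, and more did in U266, so the depths of the 2 tables may differ in unit. FPKM summed to 271277 to 274111 in the LP-1 DHA libraries, against 306658 to 325583 in the LP-1 DMSO libraries. LP-1 DMSO library 3 had the highest of these sums. It also had the fewest genes above 0 of its line, 23060 against 23631 to 24597. In U266, DHA library 3 stood apart, with 18399 genes above 0 against 14682 to 14992 in the other U266 libraries. It had 52.4% of its low values on even steps, against 76.3% to 78.0% in the other U266 libraries. Its 4 B cell markers summed to 7.98 FPKM, its 4 T or NK cell markers to 4.43 FPKM and its 4 monocyte or macrophage markers to 5.46 FPKM, and the highest such sum in another U266 library was 1.70 FPKM. The defining markers CD3D and FCGR3A were at 1.90 and 0.989 FPKM in that library, and FCGR3A was at 0 in every other U266 library. Of 10 plasma cell markers, 9 passed the filter in each line, including JCHAIN and SDC1. Because FPKM is a share of a library, less RNA of a gene in each cell and fewer cells of a kind cannot be told apart. The labels do not say that the 3 libraries of a group came from separate cultures, so p-values measure the spread between these libraries only.

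DHA raised most cytosolic synthetase transcripts in both lines, while the median change of the mitochondrial ones was near 0. In LP-1, 14 of the 19 cytosolic genes rose, 1 fell and 4 did not pass the test. In U266, 12 rose, 4 fell and 3 did not pass. The median log2 change of the cytosolic genes was 1.01 in LP-1 (range -0.59 to 2.23) and 0.34 in U266 (range -0.74 to 0.98). Of the 14 mitochondrial genes that reached 1 FPKM in at least 3 libraries of a line, 1 rose and 2 fell in LP-1 and 2 rose and 3 fell in U266, with medians of 0.04 and -0.02. A change here is the difference of mean log2(FPKM + 1), DHA minus DMSO, and a gene rose or fell where limma's adjusted p over all tested genes was under 0.05. Among all 12514 genes tested in LP-1, 20.0% rose and 20.2% fell, with a median change of 0.01. Among all 10422 tested in U266, 21.1% rose and 19.6% fell, with a median of 0.02. The mitochondrial changes ranged from -0.47 to 0.34 in LP-1 and from -0.37 to 0.40 in U266. The 10th and 90th percentiles of all tested genes were -0.70 and 0.64 in LP-1 and -0.36 and 0.43 in U266. The 3 DHA libraries all lay above the 3 DMSO libraries for 14 cytosolic and 3 mitochondrial genes in LP-1 and 12 and 3 in U266, against 30.2% and 27.6% of all tested genes. They all lay below for 2 cytosolic and 2 mitochondrial genes in LP-1 and 4 and 3 in U266, against 28.6% and 23.9%.

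**Figure D1:**
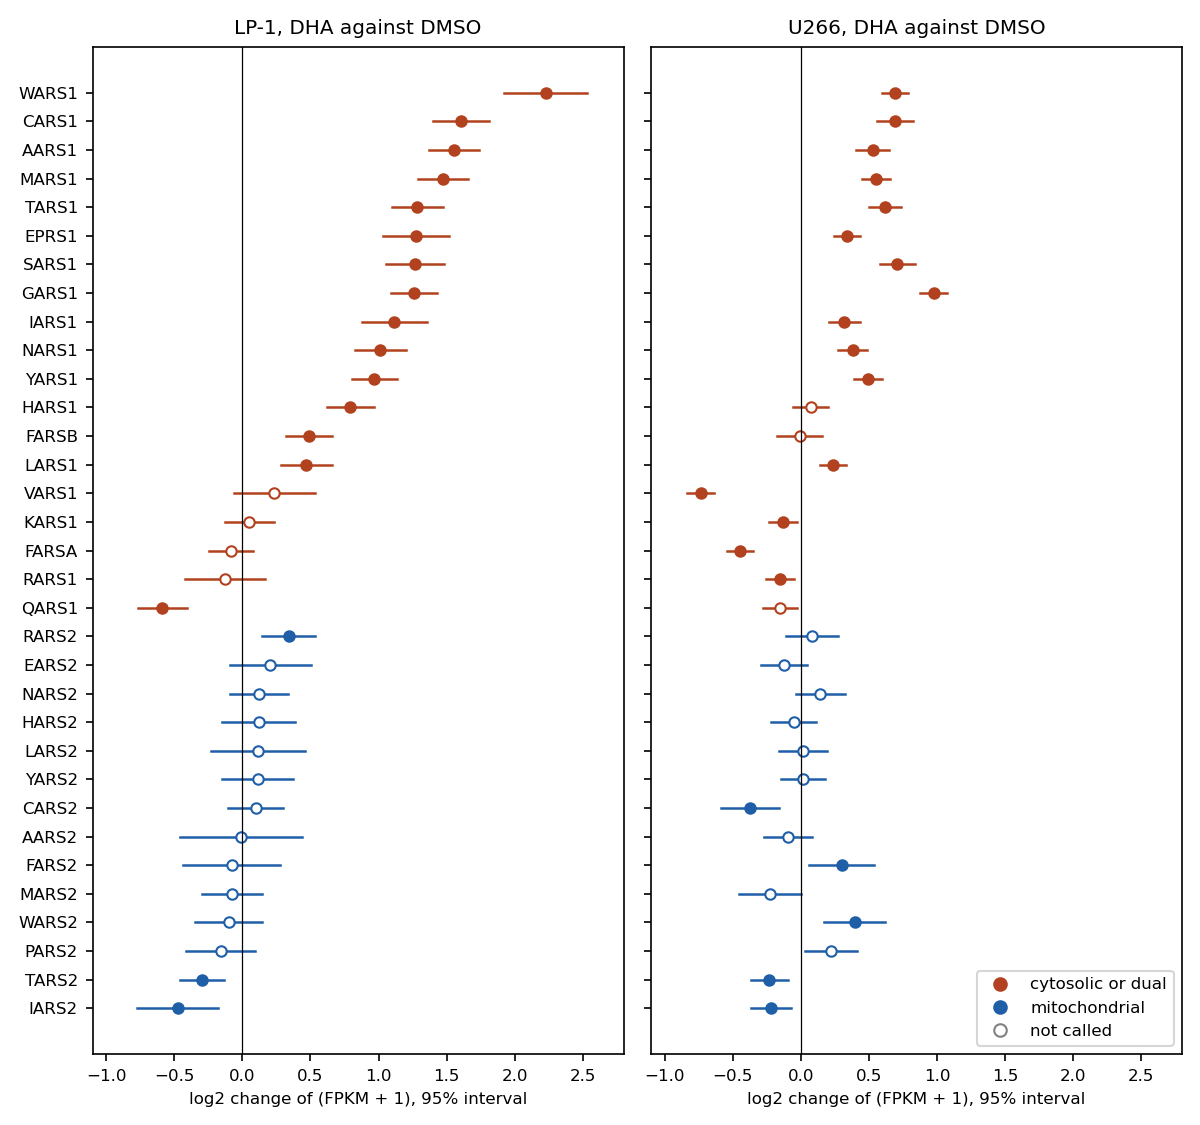
Log2 change of (FPKM + 1), DHA against DMSO, for the 33 tested synthetase genes in LP-1 (left) and U266 (right), as a point with its 95% interval from limma (n = 3 libraries per group). Filled points passed an adjusted p of 0.05. The cytosolic genes reach from -0.59 to 2.23 in LP-1 and from -0.74 to 0.98 in U266, and the mitochondrial genes stay between -0.47 and 0.40 in both lines.

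Summed FPKM shows the same separation in levels. The 19 cytosolic genes together had 1325, 1344 and 1364 FPKM in the LP-1 DHA libraries, against 742, 719 and 719 FPKM in the LP-1 DMSO libraries. The 16 mitochondrial genes had 124, 129 and 126 FPKM with DHA in LP-1, against 145, 136 and 149 FPKM with DMSO. The LP-1 groups did not overlap in either sum, which was higher with DHA for the cytosolic genes and lower for the mitochondrial ones. The lower mitochondrial sum came from IARS2 and TARS2, 2 abundant members: without them, a split made after their values were seen, the other 14 genes had 65.0, 67.0 and 67.8 FPKM with DHA in LP-1, against 67.9, 63.8 and 62.5 FPKM with DMSO, and the groups overlapped. In U266 the cytosolic sum was 1659, 1670 and 1583 FPKM with DHA, against 1261, 1264 and 1240 FPKM with DMSO. The mitochondrial sum was 185, 190 and 184 FPKM with DHA in U266, against 196, 188 and 198 FPKM with DMSO, and these values overlapped. U266 DHA library 3 had the lowest cytosolic sum of the 3 treated U266 libraries and still lay above every DMSO library.

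Markers of the plasma cell itself moved in the same libraries. Of the 9 tested, 2 rose and 5 fell in LP-1, and 6 fell in U266. The shares of all tested genes were 20.0% higher and 20.2% lower in LP-1 and 21.1% and 19.6% in U266. The 2 of 9 that rose in LP-1 lie near the share of all genes. SDC1, the surface proteoglycan used to identify plasma cells, fell by 2.37 on the log2 scale in LP-1 and by 1.11 in U266, and POU2AF1, a B-lineage coactivator, fell by 0.88 in both. IRF4, a transcription factor of plasma cell differentiation, rose by a log2 change of 1.66 in LP-1 and had a change of 0.00 in U266, where it was not called. Their part in the synthetase changes was not tested.

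The 12 cytosolic genes that rose in both lines were AARS1, CARS1, EPRS1, GARS1, IARS1, LARS1, MARS1, NARS1, SARS1, TARS1, WARS1 and YARS1. All 12 calls held in each line under every alternative tried, with adjusted p up to 0.0317 in LP-1 and 0.0129 in U266. In LP-1, 11 of the 19 cytosolic genes were at least 2-fold higher with DHA on linear FPKM, and none was in U266, where GARS1 came nearest at 1.97-fold.

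WARS1, the tryptophanyl-tRNA synthetase, which interferon also induces, had the largest rise of any synthetase in LP-1. Its level was 115, 117 and 112 FPKM with DHA, against 26.0, 26.3 and 19.4 FPKM with DMSO (log2 change 2.23 ± 0.13 SE, adjusted p = 0.000159). In U266 it was 116, 117 and 113 FPKM with DHA, against 71.8, 70.8 and 70.4 FPKM with DMSO (log2 change 0.69 ± 0.04 SE, adjusted p = 1.23e-06). Treated cells of both lines thus held similar listed levels, and the control levels differed, although FPKM of the 2 tables were not scaled together. WARS1 lies on the minus strand of chromosome 14 (GRCh38, 100333788 to 100376805), and 287 of its exon bases overlap WDR25 on the other strand.

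CARS1, the cysteinyl-tRNA synthetase, was the least abundant of the strongly rising genes. It had 17.0, 17.3 and 17.5 FPKM with DHA in LP-1, against 5.18, 4.45 and 5.43 FPKM with DMSO (log2 change 1.61 ± 0.09 SE, adjusted p = 0.000126). In U266 it had 16.2, 17.8 and 17.9 FPKM with DHA, against 10.4, 10.3 and 10.2 FPKM with DMSO (log2 change 0.69 ± 0.06 SE, adjusted p = 1.40e-05). The groups did not overlap in either line.

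AARS1, which charges alanine tRNA, had 123, 127 and 126 FPKM with DHA in LP-1, against 44.3, 42.0 and 39.8 FPKM with DMSO (log2 change 1.56). MARS1, the methionyl enzyme of the multisynthetase complex, had 63.9, 68.8 and 64.9 FPKM with DHA in LP-1, against 24.4, 22.6 and 22.2 FPKM with DMSO (log2 change 1.47). In U266 MARS1 had 85.2, 85.2 and 80.6 FPKM with DHA, against 56.0, 58.5 and 55.4 FPKM with DMSO (log2 change 0.55). All 6 groups are tight, and none overlaps its control. MARS1 shares 355 exon bases, 5.05% of its exons, with DDIT3 on the opposite strand. DDIT3, a stress transcription factor, rose by a log2 change of 1.77 in LP-1 and 2.84 in U266, and its part in the MARS1 value was not tested. Whether counting used strand is unstated.

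TARS1, the threonyl-tRNA synthetase, had 140.4, 139 and 148 FPKM with DHA in LP-1, against 56.7, 55.9 and 60.7 FPKM with DMSO (log2 change 1.29). In U266 it had 102, 104 and 93.0 FPKM with DHA, against 62.4, 66.0 and 65.4 FPKM with DMSO (log2 change 0.62). The groups did not overlap in either line, with adjusted p of 0.000182 in LP-1 and 1.49e-05 in U266. Its close paralogue TARS3, another threonyl-tRNA synthetase gene, fell. TARS3 had 6.54, 6.37 and 6.44 FPKM with DHA in LP-1, against 8.79, 10.1 and 10.8 FPKM with DMSO (log2 change -0.54), and in U266 its log2 change was -0.30 (adjusted p = 0.0467). The TARS3 call in U266 was lost without any U266 library other than DHA replicate 3 (0.0578 to 0.173).

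GARS1, the glycyl enzyme of both compartments, had the largest rise in U266. It had 265, 263 and 254 FPKM with DHA in U266, against 131, 135 and 130 FPKM with DMSO (log2 change 0.98 ± 0.05 SE, adjusted p = 1.73e-07). GARS1 was the most abundant member with DHA in U266, ahead of AARS1 at 176 ± 10.5 FPKM and NARS1, the asparaginyl enzyme, at 175 ± 6.76 FPKM (SD, n = 3 each). AARS1 and NARS1 did not differ beyond their spread. SARS1, the seryl enzyme, had 66.1, 71.9 and 67.8 FPKM with DHA in U266, against 40.7, 44.8 and 39.4 FPKM with DMSO (log2 change 0.71). The groups of both genes were separate. In LP-1 the leading gene was NARS1 in both conditions, with 187 ± 6.88 FPKM with DHA and 92.0 ± 1.52 FPKM with DMSO (SD, n = 3 each).

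The order of levels changed most in LP-1. WARS1 ranked 5 among the 35 genes with DHA and 13 with DMSO, AARS1 ranked 4 and 9, and GARS1 ranked 8 and 12. KARS1, the lysyl enzyme of both compartments, ranked 7 with DHA and 2 with DMSO, although its own level barely moved, at 81.7 ± 1.13 FPKM with DHA and 78.8 ± 3.60 FPKM with DMSO (SD, n = 3 each). QARS1 ranked 12 with DHA and 3 with DMSO. The lowest members in every group were SARS2 and VARS2.

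**Figure D2:**
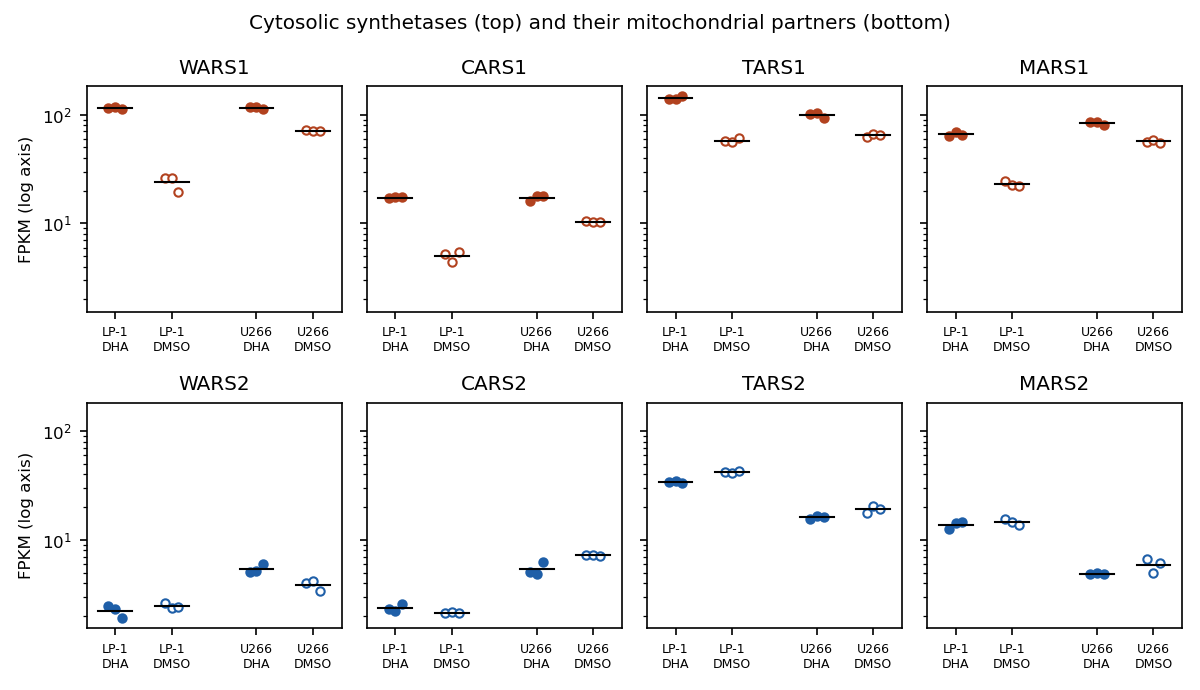
FPKM on a log axis for 4 cytosolic synthetases (top) and their mitochondrial partners (bottom), with a point for each library and a bar at the group mean; filled points are DHA and open points DMSO. WARS1 stands at 112 to 117 FPKM in the LP-1 DHA libraries and at 19.4 to 26.3 FPKM in the LP-1 DMSO libraries, while WARS2 stays between 1.91 and 2.64 FPKM in LP-1.

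The remaining members that rose in both lines were EPRS1, IARS1, LARS1, NARS1 and YARS1. EPRS1, which fuses the glutamyl and prolyl enzymes in a single protein, changed by 1.27 in LP-1 and 0.34 in U266. IARS1 and LARS1, the isoleucyl and leucyl enzymes of the complex, changed by 1.12 and 0.47 in LP-1 and by 0.32 and 0.24 in U266. YARS1, the tyrosyl enzyme, changed by 0.97 in LP-1 and 0.49 in U266. LARS1 thus had the smallest change of the 12 in each line.

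The other 7 cytosolic genes did not rise in both lines. QARS1, the glutaminyl enzyme of the complex, fell in LP-1, where it had 50.6, 49.8 and 49.8 FPKM with DHA, against 76.1, 71.8 and 79.5 FPKM with DMSO (log2 change -0.59 ± 0.07 SE, adjusted p = 0.00195). Its LP-1 groups were far apart, and its call held under every alternative, with adjusted p up to 0.0182. In U266 QARS1 had 44.5, 40.5 and 42.1 FPKM with DHA, against 48.7, 48.8 and 44.3 FPKM with DMSO. Those groups overlapped, and the log2 change of -0.15 missed the threshold (adjusted p = 0.0501). It passed under 5 of 14 alternatives, among them without DHA replicate 1 (0.0350) and without DMSO replicate 3 (0.0326), in a range of 0.0326 to 0.247.

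VARS1, the valyl enzyme, which binds translation elongation factor 1, had the largest fall in U266. It had 33.3, 34.1 and 33.6 FPKM with DHA, against 55.6, 57.7 and 57.0 FPKM with DMSO (log2 change -0.74 ± 0.04 SE, adjusted p = 9.63e-07). In LP-1 VARS1 had 57.5, 59.4 and 53.1 FPKM with DHA, against 53.7, 51.1 and 40.3 FPKM with DMSO, with overlapping groups (log2 change 0.23, adjusted p = 0.173). It was called higher there with all 12 libraries in 1 fit (adjusted p = 0.0496, the range over its alternatives being 0.0496 to 0.378). FARSA, the alpha subunit of the phenylalanyl enzyme, fell in U266 as well, with 51.5, 53.2 and 53.1 FPKM with DHA, against 72.8, 70.9 and 72.3 FPKM with DMSO (log2 change -0.45, adjusted p = 2.69e-05). The VARS1 and FARSA falls held under every alternative tried. In LP-1 FARSA changed by -0.08 (adjusted p = 0.363).

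FARSB, the beta subunit that assembles with FARSA, did not follow it. FARSB rose in LP-1 by a log2 change of 0.49 (adjusted p = 0.00297), while in U266 it had 34.8, 40.8 and 35.9 FPKM with DHA, against 40.7, 34.6 and 36.8 FPKM with DMSO. The log2 ratio of FARSB to FARSA, computed after both genes' values had been seen and therefore given without a test, was -0.76, -0.79 and -0.76 in LP-1 DHA libraries, against -1.29, -1.41 and -1.32 in LP-1 DMSO libraries. In U266 it was -0.55, -0.38 and -0.55 with DHA, against -0.82, -1.01 and -0.95 with DMSO. Beta-subunit transcript was higher relative to alpha-subunit transcript with DHA in every treated library of both lines.

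RARS1 and KARS1, the arginyl and lysyl enzymes of the complex, passed the test only narrowly in U266. RARS1 had 49.0, 50.5 and 47.6 FPKM with DHA, against 53.5, 55.4 and 54.6 FPKM with DMSO (log2 change -0.15, adjusted p = 0.0220). KARS1 had 63.1, 62.0 and 59.2 FPKM with DHA, against 68.2, 68.7 and 65.1 FPKM with DMSO (log2 change -0.13, adjusted p = 0.0486). Both sets of groups were separate, but by little. RARS1 was no longer called without DHA replicate 3 (adjusted p = 0.0529), DMSO replicate 2 (0.0659) or DMSO replicate 3 (0.0731), and ranged up to 0.452 over all alternatives. KARS1 was lost whichever of the 6 U266 libraries was left out (0.0505 to 0.134) and reached 0.639 with quantile normalization. HARS1, the histidyl enzyme and the seventh of these genes, rose in LP-1 and is described with its neighbour HARS2.

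Rising genes were found both inside and outside the multisynthetase complex. Of the 7 members in the complex, 4 rose and 1 fell in LP-1 and 4 rose and 2 fell in U266, with medians of 0.47 and 0.24. Of the 12 outside it, 10 rose in LP-1, and 8 rose and 2 fell in U266, with medians of 1.14 and 0.51. The 2 structural classes of synthetase had medians of 0.97 for class I and 1.01 for class II in LP-1 and 0.32 and 0.38 in U266. Over all tested genes, 20.0% rose and 20.2% fell in LP-1 and 21.1% and 19.6% in U266. These splits are descriptions of small lists and were not tested.

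Promoter windows of the synthetase genes were searched for the letters of an ATF4-type element. RefSeq windows (GRCh38.p14), from 250 bases before to 50 bases after a transcription start, were matched by symbol for 30 of the 35 members. LARS1, YARS1, VARS1, AARS2 and VARS2 had none. The letters TGATGNAA, the core of the element that ATF4 is known to bind with C/EBP proteins, were searched on both strands. They were present in 7 of the 16 cytosolic members with a window and in 1 of the 14 mitochondrial members, against 4.46% of all 27305 genes with windows. The stricter TGATGCAA, a subset of these matches, was present in 6 of 16 cytosolic and 0 of 14 mitochondrial members, against 1.08% of all genes. TGACGNAA was found in 0 cytosolic members and in NARS2, against 2.06% of all genes.

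All 7 cytosolic genes with a match are among the 12 that rose in both lines, and their matches are printed for comparison base by base. Of those 12, 3 had a window without a match and 2 had no window. Of the other 7 cytosolic genes, the 6 with a window had no match. Each stretch holds 30 bases of the gene's own strand, 5′ to 3′, with the matched letters in capitals. TTGCATCA is TGATGCAA read from the opposite strand.
AARS1, chr16:70289675-70289704, minus strand: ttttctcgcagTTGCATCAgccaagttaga
CARS1, chr11:3057407-3057436, minus strand: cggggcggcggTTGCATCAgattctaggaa
IARS1, chr9:92293692-92293721, minus strand: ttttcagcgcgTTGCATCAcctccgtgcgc
MARS1, chr12:57488053-57488082, plus strand: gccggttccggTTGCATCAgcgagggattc
TARS1, chr5:33440956-33440985, plus strand: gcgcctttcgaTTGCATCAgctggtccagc
GARS1, chr7:30594834-30594863, plus strand: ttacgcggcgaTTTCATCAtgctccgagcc
NARS1, chr18:57621804-57621833, minus strand: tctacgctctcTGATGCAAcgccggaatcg
YARS2, chr12:32756076-32756105, minus strand: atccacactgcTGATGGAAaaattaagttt
In 6 of the 7 cytosolic genes the match began within 35 bases of a listed start, and in AARS1 it began 187 bases before it. GARS1 carries the form with another base at the open position. The mitochondrial match, in YARS2, lies 197 bases before the start, and YARS2 was not called in either line (log2 change 0.11 in LP-1 and 0.02 in U266). WARS1, with the largest rise in LP-1, and EPRS1 and SARS1 had windows without these letters, which says only that the letters are not in those windows. Neither binding by ATF4 nor a part of these letters in the changes was tested.

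Among the mitochondrial genes, IARS2 and TARS2 fell in both lines, by small amounts. IARS2, the isoleucyl enzyme, had 24.9, 27.0 and 24.9 FPKM with DHA in LP-1, against 34.8, 31.2 and 42.8 FPKM with DMSO (log2 change -0.47, adjusted p = 0.0246). In U266 IARS2 had 44.8, 49.7 and 41.5 FPKM with DHA, against 53.6, 50.4 and 54.5 FPKM with DMSO (log2 change -0.22, adjusted p = 0.0227). The groups were separate in both lines. TARS2, the threonyl enzyme, had 34.0, 34.8 and 33.6 FPKM with DHA in LP-1, against 42.1, 41.0 and 43.3 FPKM with DMSO (log2 change -0.30, adjusted p = 0.0157). In U266 TARS2 had 15.5, 16.6 and 16.3 FPKM with DHA, against 17.8, 20.4 and 19.2 FPKM with DMSO (log2 change -0.23, adjusted p = 0.0135). The TARS2 groups were separate as well. These calls were lost in several of the fits that left 1 library out. Calls over all tested genes also became fewer in such LP-1 fits. Without an LP-1 DHA library, 1367 to 1399 genes rose and 1543 to 1595 fell, against 2504 and 2523 with every library. Without LP-1 DMSO replicate 1, 1800 rose and 1812 fell. In LP-1 both were lost when any DHA library or DMSO replicate 1 was left out, at adjusted p of 0.0618 to 0.0913 for IARS2 and 0.0549 to 0.0815 for TARS2. In U266 IARS2 was lost without DHA replicate 1 or 3 or DMSO replicate 1 or 3 (0.0583 to 0.0831), and TARS2 without DMSO replicate 2 (0.0564). Over all alternatives IARS2 reached 0.140 in U266.

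RARS2, the arginyl enzyme, was the mitochondrial gene that rose in LP-1. It had 2.28, 2.31 and 2.41 FPKM with DHA, against 1.63, 1.67 and 1.60 FPKM with DMSO (log2 change 0.34, adjusted p = 0.0174). The groups were apart at a low level, and the call was lost without any DHA library or DMSO replicate 1 (adjusted p 0.0553 to 0.0770). In U266 RARS2 stood at 32.6 ± 3.91 FPKM with DHA and 30.7 ± 2.57 FPKM with DMSO (SD, n = 3 each) and was not called.

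WARS2 and FARS2, the tryptophanyl and phenylalanyl enzymes, rose in U266, and CARS2, the cysteinyl enzyme, fell there. WARS2 had 5.06, 5.15 and 6.04 FPKM with DHA, against 4.05, 4.16 and 3.40 FPKM with DMSO (log2 change 0.40, adjusted p = 0.0102). CARS2 had 5.04, 4.83 and 6.32 FPKM with DHA, against 7.34, 7.30 and 7.10 FPKM with DMSO (log2 change -0.37, adjusted p = 0.0103). Both had separate groups, and both calls held under every alternative, with adjusted p up to 0.0453 and 0.0420. DHA replicate 3 was the highest treated library for both, and the calls held without it. FARS2 had 7.09, 9.36 and 9.13 FPKM with DHA, against 6.18, 7.48 and 6.48 FPKM with DMSO (log2 change 0.30, adjusted p = 0.0464). Its groups overlapped, and the call was lost without DHA replicate 2 (0.152) or 3 (0.112) or DMSO replicate 1 (0.147) or 3 (0.122), the highest of all alternatives being 0.152.

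In LP-1, WARS2 and CARS2 stayed near 2 FPKM. WARS2 had 2.47, 2.33 and 1.91 FPKM with DHA, against 2.64, 2.36 and 2.39 FPKM with DMSO. CARS2 had 2.30, 2.21 and 2.56 FPKM with DHA, against 2.13, 2.16 and 2.11 FPKM with DMSO. The WARS2 groups overlapped, the CARS2 groups did not, and neither gene was called. MARS2, the methionyl enzyme, overlapped in both lines, with 12.6, 14.2 and 14.6 FPKM with DHA in LP-1, against 15.6, 14.6 and 13.6 FPKM with DMSO. In U266 MARS2 had 4.81, 4.99 and 4.89 FPKM with DHA, against 6.71, 4.91 and 6.17 FPKM with DMSO, and was called lower without DMSO replicate 2 (adjusted p = 0.0212) or with quantile normalization (0.0377).

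The other 7 tested mitochondrial genes, AARS2, EARS2, HARS2, LARS2, NARS2, PARS2 and YARS2, were called in neither line. PARS2, the prolyl enzyme, came nearest in U266 with a log2 change of 0.22 (adjusted p = 0.0599). Without LP-1 DMSO replicate 3, which had the lowest AARS2 and LARS2 of its line, AARS2 and PARS2 were called lower in LP-1 (log2 change -0.23 and -0.25, adjusted p = 0.0177 and 0.0187) and YARS2 higher (0.22, 0.0114). Among all tested LP-1 genes, 3499 rose and 3574 fell without that library, against 2504 and 2523 with it. SARS2 and VARS2 were below the filter in both lines and were not tested. SARS2 had 1.10, 0.980 and 0.930 FPKM with DHA in LP-1, against 0.980, 0.720 and 0.840 FPKM with DMSO, and VARS2 stayed between 0.230 and 0.410 FPKM in LP-1. Of their exon bases, 46.2% of SARS2 and 22.0% of VARS2 overlap another gene on the same strand, so these values are uncertain.

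Each cytosolic gene was next set against its mitochondrial partner for the same amino acid within a library, as a log2 ratio of (FPKM + 1). The added 1 FPKM damps the part of a partner at low FPKM, such as WARS2, CARS2 and RARS2 in LP-1 and SARS2 and VARS2 in both lines, so a factor common to both genes does not fully cancel there. Of 17 pairs, 14 changed by an exact two-sided permutation test within lines, adjusted over the 17, and the same 14 passed with no value added. In 13 of them the cytosolic share was higher with DHA, and in RARS1 over RARS2 it was lower. The log2 ratio was higher in every DHA library than in every DMSO library for 14 pairs in LP-1 and 10 in U266, and lower for 1 and 3. Of all tested single genes, 30.2% were separated in this way upward and 28.6% downward in LP-1, and 27.6% and 23.9% in U266. No such share was computed for ratios of other genes. EPRS1 enters 2 pairs, as does FARS2, so those pairs share values.

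The largest summed change was that of WARS1 over WARS2, at 2.63 on the log2 scale over both lines (exact permutation p = 0.01, adjusted p = 0.0131). In LP-1 this log2 ratio was 5.06, 5.15 and 5.28 with DHA, against 2.89, 3.02 and 2.59 with DMSO. In U266 it was 4.28, 4.27 and 4.02 with DHA, against 3.85, 3.80 and 4.02 with DMSO. The U266 groups overlapped at 4.02, and WARS2 rose in U266 as well.

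CARS1 over CARS2 followed with 2.57 (exact permutation p = 0.005, the smallest that the 400 arrangements can give, adjusted p = 0.00773). Its log2 ratio was 2.45, 2.51 and 2.38 with DHA in LP-1, against 0.98, 0.79 and 1.05 with DMSO. In U266 it was 1.51, 1.69 and 1.36 with DHA, against 0.45, 0.45 and 0.47 with DMSO. This was the largest ratio change of U266, at 1.06, with CARS1 rising and CARS2 falling. TARS1 over TARS2 changed by 2.43 and MARS1 over MARS2 by 2.33, each at the same smallest p, and with separate groups in both lines.

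IARS1 over IARS2 turned round in LP-1. The log2 ratio was 0.45, 0.35 and 0.46 with DHA, against -1.01, -0.90 and -1.60 with DMSO, so the cytosolic transcript was the more abundant in each DHA library and the less abundant in each DMSO library. In U266 it was 1.16, 1.01 and 1.14 with DHA, against 0.58, 0.62 and 0.50 with DMSO. The summed change was 2.13 (exact permutation p = 0.005, adjusted p = 0.00773). The 250 bases before each RefSeq start are printed for this pair. Its members were called in opposite directions in both lines, as were TARS1 and TARS2. The IARS2 call was lost under 5 of 14 alternatives in LP-1 and 8 of 14 in U266. Capitals in the IARS1 promoter mark TTGCATCA, 13 bases before the start, and the IARS2 promoter holds no match. A part of this difference in the changes was not tested.
IARS1, chr9:92293698-92293947, minus strand: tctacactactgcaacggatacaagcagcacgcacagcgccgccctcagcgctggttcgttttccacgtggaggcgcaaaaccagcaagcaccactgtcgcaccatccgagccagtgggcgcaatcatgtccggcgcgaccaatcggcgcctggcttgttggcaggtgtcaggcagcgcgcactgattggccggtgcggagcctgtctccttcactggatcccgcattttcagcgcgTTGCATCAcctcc
IARS2, chr1:220093882-220094131, plus strand: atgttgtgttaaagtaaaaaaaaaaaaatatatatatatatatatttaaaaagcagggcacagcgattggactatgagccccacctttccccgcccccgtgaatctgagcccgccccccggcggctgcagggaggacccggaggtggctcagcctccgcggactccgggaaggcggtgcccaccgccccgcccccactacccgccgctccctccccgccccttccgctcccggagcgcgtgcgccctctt

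HARS1 and HARS2, the histidyl enzymes of cytosol and mitochondria, are neighbours that start back to back. HARS1 had 8.54, 8.88 and 8.98 FPKM with DHA in LP-1, against 4.85, 4.68 and 4.46 FPKM with DMSO (log2 change 0.79, adjusted p = 0.000645). HARS2 had 7.79, 7.97 and 8.99 FPKM with DHA in LP-1, against 7.30, 6.63 and 8.65 FPKM with DMSO (log2 change 0.12, adjusted p = 0.411). In U266 neither was called. HARS1 groups were separate in LP-1 and HARS2 groups overlapped, although 437 exon bases of the 2 genes overlap on opposite strands. Their log2 ratio changed by 0.80 summed over both lines (exact permutation p = 0.01, adjusted p = 0.0131), 0.67 in LP-1 and 0.13 in U266. In U266 the ratio was 0.21, 0.21 and 0.16 with DHA, against 0.10, 0.16 and -0.06 with DMSO, and the groups overlapped. The RefSeq starts leave only 84 bases between them, printed here on the plus strand, on which HARS2 lies to the right and HARS1 runs to the left; the stretch holds none of the 3 searched motifs.
HARS1 and HARS2, chr5:140691371-140691454, plus strand: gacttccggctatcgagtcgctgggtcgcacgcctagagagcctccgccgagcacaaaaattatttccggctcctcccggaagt

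RARS1 over RARS2 was the pair that changed the other way. The log2 ratio was 2.64, 2.67 and 2.81 with DHA in LP-1, against 3.06, 3.04 and 3.42 with DMSO. In U266 it was 0.40, 0.66 and 0.69 with DHA, against 0.74, 0.97 and 0.73 with DMSO. Groups were separate in both lines (summed change -0.70, exact permutation p = 0.005, adjusted p = 0.00773). The pairs that did not pass were FARSA over FARS2 at -0.75 (exact permutation p = 0.05, adjusted p = 0.0567), FARSB over FARS2 at 0.26 (0.52, 0.52) and VARS1 over VARS2 at -0.50 (0.125, 0.133), which was -0.08 with no value added (adjusted p = 0.92). FARSA over FARS2 passed without LP-1 DMSO replicate 3 (summed change -0.91, adjusted p = 0.00708, the range over its alternatives being 0.00708 to 0.102). The 7 other pairs, from AARS1 over AARS2 to YARS1 over YARS2, changed by 0.58 to 2.19 with adjusted p of 0.00773 to 0.0182.

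**Figure D3:**
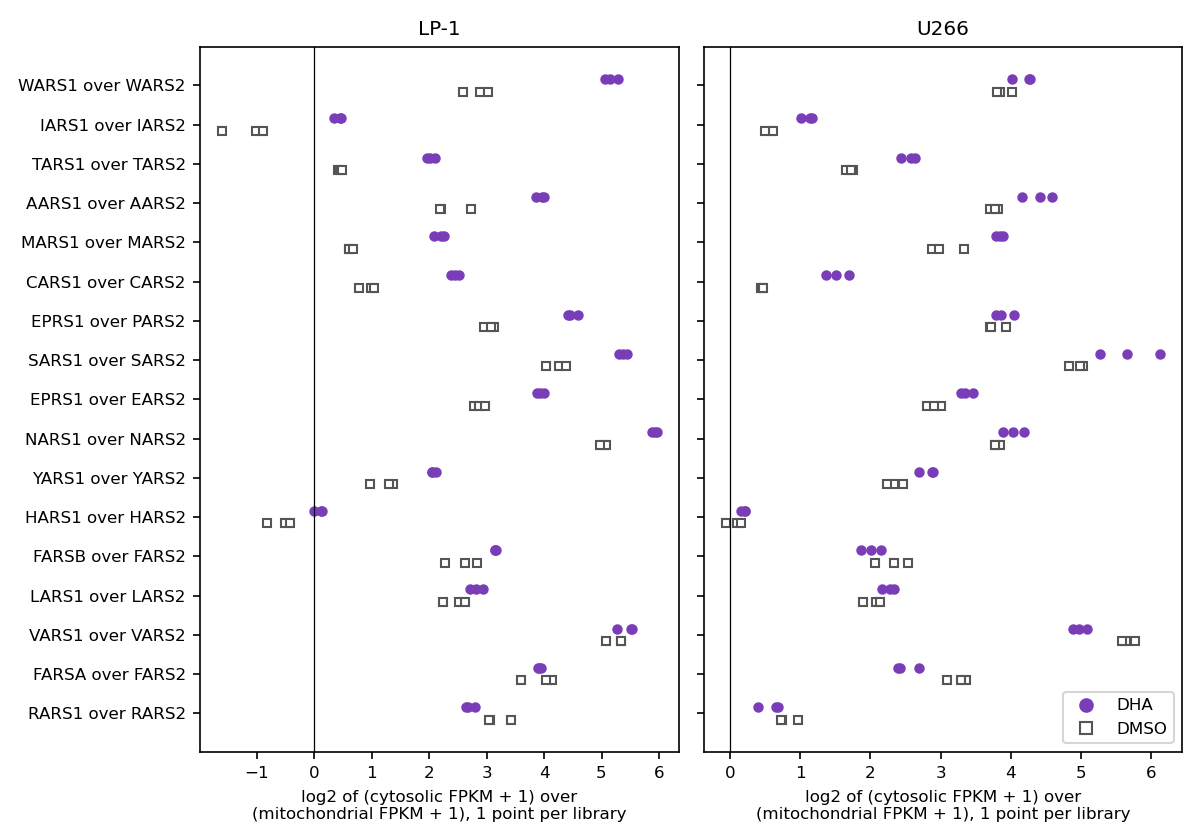
Log2 ratio of the cytosolic gene's (FPKM + 1) to that of its mitochondrial partner in each of the 12 libraries, LP-1 left and U266 right, with filled circles for DHA and open squares for DMSO. In LP-1 the circles lie right of the squares for 14 of 17 pairs and left of them for RARS1 over RARS2; in U266 they lie right for 10 and left for 3.

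The rise of the cytosolic genes was larger in LP-1. The difference between the lines, the DHA change in LP-1 minus the DHA change in U266, was tested directly with limma in the 8864 genes kept in both. It passed an adjusted p of 0.05 above 0 for 15 of the 19 cytosolic genes. Below 0 it passed for QARS1 alone (-0.43, adjusted p = 0.00444). Of all genes, 18.6% passed above 0 and 16.1% below. Of the 12 genes that rose in both lines, 11 rose more in LP-1, and LARS1 missed the threshold (0.23, adjusted p = 0.0569), passing without LP-1 DMSO replicate 2 (0.02) or 3 (0.0318) in a range of 0.02 to 0.371. WARS1 differed most, by 1.53 ± 0.14 SE (adjusted p = 1.37e-05), followed by AARS1 at 1.03 and VARS1 at 0.97. GARS1 differed least among those that passed (0.28, adjusted p = 0.0213), and its call was lost without LP-1 DHA replicate 3 (0.0615) or U266 DMSO replicate 2 (0.0501) and with the replicate block (0.0667).

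Most mitochondrial genes showed no such difference, with a median of 0.09 over 14 genes, against 0.63 over the 19 cytosolic ones and 0.02 over all 8864 genes. CARS2 passed above 0 (0.47, adjusted p = 0.0143), and WARS2 (-0.50, 0.0172) and PARS2 (-0.38, 0.0477) passed below 0. The WARS2 call was lost with quantile normalization (0.0526). The PARS2 call was lost without any of 10 of the 12 libraries (0.0545 to 0.112), LP-1 DMSO replicate 3 and U266 DHA replicate 1 being the exceptions.

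**Figure D4:**
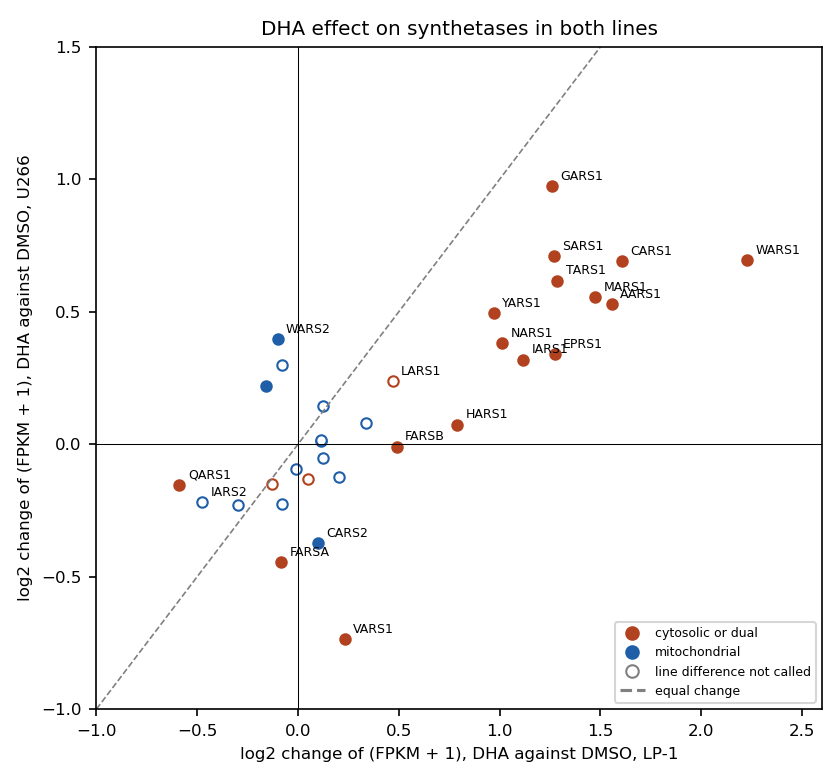
Log2 change of (FPKM + 1), DHA against DMSO, in LP-1 (x axis) and U266 (y axis) for the 33 tested synthetase genes, with filled points where the difference between lines passed an adjusted p of 0.05. Most cytosolic points lie right of the dashed line of equal change, WARS1 farthest at 2.23 and 0.69, and the mitochondrial points lie around the origin.

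Among 9 other genes of tRNA charging, 2 rose and 1 fell in LP-1 (XPOT and AIMP2 against TARS3), and 3 rose and 1 fell in U266 (the same 3 genes and QRSL1, a subunit of the transamidation enzyme, which rose). The QRSL1 call was lost without U266 DMSO replicate 1 (adjusted p = 0.0561) and with quantile normalization (0.0675). Over all tested genes, 20.0% rose and 20.2% fell in LP-1 and 21.1% and 19.6% in U266, so the LP-1 share that rose lies near that of all genes. XPOT, which exports tRNAs from the nucleus, had 179, 177 and 183 FPKM with DHA in LP-1, against 68.4, 74.0 and 61.0 FPKM with DMSO (log2 change 1.4), and changed by 0.75 in U266. AIMP2, a scaffold of the multisynthetase complex, rose by a log2 change of 0.89 in LP-1 and 0.41 in U266, while the scaffold AIMP1 changed by -0.13 and 0.00 and was called in neither.

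The genes that use or mature mitochondrial tRNAs were called in both directions, and their counts stand beside the same shares over all tested genes. Of 10 mitochondrial translation factors, 4 rose and 2 fell in LP-1 (GFM1, GFM2, MTIF2 and MRRF against MTIF3 and MTRF1). Of the 8 tested in U266, 1 rose and 1 fell (MTIF2 and TUFM). The shares of all tested genes were 20.0% higher and 20.2% lower in LP-1 and 21.1% and 19.6% in U266. GFM1, an elongation factor, rose by a log2 change of 0.43 in LP-1, and MTIF3, an initiation factor, fell by 0.45 there, a call lost without any LP-1 DHA library or DMSO replicate 1 (adjusted p 0.0554 to 0.0940). The rises of GFM2 and MRRF were lost without any 1 LP-1 DHA library (up to 0.0815 and 0.0792) and the fall of MTRF1 without DHA replicate 1 or 2 (up to 0.0647). In U266 the rise of MTIF2 was lost without DHA replicate 2 or DMSO replicate 3 (up to 0.0556). TUFM, the elongation factor that brings charged tRNA to the mitochondrial ribosome, fell by 0.36 in U266. Of the genes that process or modify mitochondrial tRNAs, 1 of 11 rose and 1 fell in LP-1 (20.0% and 20.2% of all tested genes), and 2 of 12 rose and 4 fell in U266 (21.1% and 19.6%).

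MTO1 stood out in that list by rising in both lines. MTO1, which modifies the wobble base of some mitochondrial tRNAs together with GTPBP3, had 9.80, 10.1 and 9.68 FPKM with DHA in LP-1, against 4.65, 4.79 and 4.64 FPKM with DMSO (log2 change 0.93), and changed by 0.42 in U266. GTPBP3 changed by -0.23 in LP-1, where it was not called, and fell by 0.51 in U266. TRMT10C, a subunit of mitochondrial RNase P, fell in both lines (log2 change -0.50 and -0.48), in LP-1 only while every DHA library and DMSO replicate 1 were kept (adjusted p 0.0657 to 0.131 without one of them). The falls in U266 were those of GTPBP3, TRMT10C, HSD17B10 and ELAC2, and the second rise was that of TRMT61B, at the threshold (adjusted p = 0.0480, lost in 9 of 14 alternatives). Of genes that clear mischarged tRNA, 1 of 4 fell in LP-1, the pseudogene PRORSD1P (lost in 7 of 12 alternatives). This lies near the 20.2% of all tested LP-1 genes that fell. Neither of the 2 tested in U266 was called.

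Stress factors moved beside the cytosolic synthetases. ATF4, DDIT3, ASNS, TRIB3, SESN2 and CHAC1 rose in both lines, 6 of 6 in each, against 20.0% of all tested genes in LP-1 and 21.1% in U266. ATF4 had 370, 377 and 389 FPKM with DHA in LP-1, against 221, 208 and 303 FPKM with DMSO (log2 change 0.65), and changed by 0.84 in U266. The ATF4 call in LP-1 was lost without any DHA library or DMSO replicate 1 (adjusted p 0.0647 to 0.0718). ASNS, the asparagine synthetase, changed by 1.44 in LP-1 and 0.94 in U266. By the test of the line difference ASNS, TRIB3 and SESN2 rose more in LP-1, DDIT3 rose more in U266 (difference -1.06), and CHAC1 (-0.47) and ATF4 (-0.18) did not pass. The part of these factors in the synthetase changes was not tested.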

How the data were processed

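RNA libraries had been prepared with a SMARTer mRNA kit from total RNA, per the labels' protocols. The authors deposited FPKM values per gene in 1 table for each line. No source used here names an aligner or an annotation, and the submitters' processing notes name only mouse builds although the rows are human genes. Rows were matched by Ensembl ID or by the GENCODE v29 symbol of that ID. Genes at 1 FPKM or more in at least 3 of a line's 6 libraries were tested on log2(FPKM + 1) with limma 3.58.1 (trended variance, two-sided) in R 4.3.3, at an adjusted p of 0.05 (Benjamini-Hochberg, all tested genes of the line). The pseudocount of 1 understates changes of low genes. Line differences came from a fit of all 12 libraries, and pair ratios from an exact permutation test. The script was tested on simulated data. Genes printed library by library were, by rule, the 5 cytosolic and 3 mitochondrial genes with the largest change in each line, both partners of the 4 leading pairs, and called genes that moved against their class. HARS1, HARS2, IARS1 and FARSB values and ratios were added after their values were seen. TARS3, XPOT, MTO1, ATF4 and SARS2 values were also printed outside the rule. Members, lists and motifs were chosen with earlier results of these data known. The labels state no pairing, and the correlation of same-numbered libraries did not exceed 0.1 in every pair of either line, so no block was used. Low FPKM values fell on whole reads within 0.1 for 92.6% to 96.2% of them, which gave the depths. Some genes of tRNA charging are not reported here.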

Additional observations from a re-analysis of the deposited data

Results flagged for a closer look

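For 19 of the 33 tested synthetase genes the DHA change in LP-1 differed from that in U266 by limma's direct test of the difference, at an adjusted p under 0.05 over 8864 genes. Of those 8864 genes, 18.6% passed with a difference above 0 and 16.1% with a difference below 0. Among cytosolic genes the LP-1 change exceeded the U266 change (log2) by 1.53 for WARS1, 1.03 for AARS1, 0.97 for VARS1, 0.93 for EPRS1, 0.92 for MARS1, 0.91 for CARS1 and 0.80 for IARS1. The excess was 0.72 for HARS1, 0.67 for TARS1, 0.63 for NARS1, 0.56 for SARS1, 0.50 for FARSB, 0.48 for YARS1, 0.36 for FARSA and 0.28 for GARS1. It was -0.43 for QARS1, which fell in LP-1. Among mitochondrial genes it was 0.47 for CARS2, -0.38 for PARS2 and -0.50 for WARS2. These calls, 1 above 0 and 2 below among 14 genes, do not exceed the shares over all genes. In VARS1 and FARSA a fall in U266 (log2 change -0.74 and -0.45) stood beside LP-1 changes of 0.23 and -0.08, which were not called except for VARS1 with all 12 libraries in 1 fit (adjusted p = 0.0496).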

How the results depend on the processing

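The counts of cytosolic genes called higher, 14 in LP-1 and 12 in U266, held under every alternative tried, as did the 14 and 12 genes themselves. Quantile normalization moved their median log2 change to 1.10 in LP-1 and 0.41 in U266. Cytosolic genes called lower in U266 numbered 2 instead of 4 with all 12 libraries in 1 fit, with quantile normalization and with no variance trend, and 2 to 4 with a library left out. In LP-1, mitochondrial calls fell to 1 lower with no filter, 0 higher at a mean of at least 5 FPKM, and 0 higher and 1 lower with a replicate block. With a library left out they ran from 0 to 2 higher and 0 to 4 lower. Their LP-1 median was 0.0745 with no filter, -0.0434 at a mean of 5 FPKM, 0.0214 with quantile normalization and 0.0296 to 0.0819 with a library left out. In U266, 1 mitochondrial gene instead of 2 was called higher with all 12 libraries in 1 fit, no filter, TMM-style scaling, quantile normalization or no variance trend, and 1 to 3 with a library left out. Their U266 median was -0.0524 at a mean of 5 FPKM, -0.0536 with quantile normalization and -0.0586 to -0.00933 with a library left out. For the line difference, mitochondrial calls were 2 higher and 1 lower with a pseudocount of 0.1, 1 lower with no filter, 0 higher and 1 lower at a mean of 5 FPKM, and 1 to 2 in each direction with a library left out. The cause was not tested. The replicate block (same-numbered libraries correlated at 0.02 to 0.18 in LP-1, and between -0.08 and -0.02 in U266) also cost RARS2 (0.34, adjusted p = 0.0596) and TARS2 (-0.30, 0.0584) in LP-1, KARS1 and TARS3 in U266, PRORSD1P in LP-1 and GARS1 between lines. In neither line did every library correlate best with its own number. No called synthetase gene or pair changed direction, while changes that were not called could change sign, as for AARS2 (-0.23 to 0.12) and FARS2 (-0.18 to 0.08) in LP-1. Of 1538 gene values under alternatives, 66 lost and 23 gained a call. Low level limited SARS2 and VARS2, which were under the filter on low values.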
